A study of Mus musculus with 9 samples.

Results

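The 56 genes described here encode the machinery that copies DNA in S phase: the factors that license and fire origins, the MCM helicase, the clamp and its loader, the replicative polymerases, the enzymes of nucleotide supply, the E2F factors and a few genes of replication repair. They were picked by symbol for these known roles from the 28965 gene symbols measured, and all 56 were found. They, their roles and the other gene lists were chosen with earlier results of these data known. Shares set beside those of all tested genes are therefore descriptions. Each averaged at least 10 normalised counts over the 9 libraries, so all 56 were among the 15002 genes tested. RNA came from 3T3-L1 cells, an established mouse line of wild-type adipocyte precursors that can be driven into fat cells in culture. Cells were grown to confluence, left for 2 days without a medium change, and then kept for 24 h in an adipogenic cocktail of insulin (0.1 µg/mL), 3-isobutyl-1-methylxanthine (30 µg/mL) and dexamethasone (0.1 µg/mL), which every group received. The OA_T0 group was given oleic acid (100 µM, bound to albumin) together with T0901317 (5 µM), which activates the liver X receptors (LXR); the OA group was given the same oleic acid alone; and the MDI group was given the albumin vehicle. Each group had 3 libraries, no group had T0901317 without oleic acid, and nothing says whether the 3 libraries of a group were separate cultures, so p-values measure only the spread between these libraries.

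Before S phase, the origin recognition complex, CDC6 and CDT1 load the MCM helicase onto origins, and geminin binds CDT1 to prevent a repeat of loading. In S phase the kinase CDC7 with its partner DBF4 fires those origins, CDC45 and the GINS complex join MCM, and polymerases held by the PCNA clamp copy both strands. Many of these genes are transcribed by E2F factors once RB is phosphorylated in late G1. Confluent 3T3-L1 cells given this cocktail are known to re-enter the cycle for a short run of divisions, called mitotic clonal expansion, before they fill with fat.

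Because E2F factors bind TTTCCCGC and TTTGGCGC, these letters were searched on both strands in the RefSeq promoter windows of the GRCm38.p6 build, which run from 250 bases before each annotated start to 50 after it. Windows were matched for 47 of the 56 genes. Of these, 15.0 held at least one of the pair, or 31.9%, beside 1.8% of the 27025.0 genes with a window and 3.5% of those tested here. CCAAT, the letters of NF-Y, stood in 30.0 of the 47 (63.8%, beside 41.1% of all genes and 44.0% of tested ones), and TTTGAA, the core of the cell cycle homology region of mitotic genes, in 9.0 (19.1%, beside 20.2% of all genes and 14.4% of tested ones). Neither E2F word contains the other, CCAAT or TTTGAA. A match describes the letters only and shows no binding. The 15 genes with E2F letters were Cdc6, Cdt1, Mcm3, Mcm5, Mcm6, Mcm7, Mcm8, Gins3, Rfc3, Pola1, Pold1, Pold3, Pole2, E2f2 and Msh6. Of them, 4 (Cdc6, Mcm8, Pold1 and Pole2) passed the test in a comparison below. Orc2, Cdc45, Pola2, Pold2, Fen1, E2f1 and Chaf1b also passed, and their windows held neither E2F word. Gmnn passed too, but no window was matched for it. Whether the letters go with a change in RNA was not tested. The stretches that follow are the E2F letters, in capitals, with their surroundings for Cdc6 and Pole2, which passed, and for Mcm5, Mcm6 and Mcm7, subunits of the helicase that did not pass in any comparison with all libraries; each is read 5′ to 3′ along the gene's own strand.
Cdc6 (chr11:98907977-98908056, plus strand): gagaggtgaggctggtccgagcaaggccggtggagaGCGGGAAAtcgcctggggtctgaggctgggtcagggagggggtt
Pole2 (chr12:69228161-69228216, minus strand): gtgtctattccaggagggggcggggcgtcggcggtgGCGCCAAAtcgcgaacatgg
Mcm5 (chr8:75109324-75109403, plus strand): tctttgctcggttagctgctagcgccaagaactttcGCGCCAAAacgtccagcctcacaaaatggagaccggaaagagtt
Mcm6 (chr1:128359709-128359851, minus strand): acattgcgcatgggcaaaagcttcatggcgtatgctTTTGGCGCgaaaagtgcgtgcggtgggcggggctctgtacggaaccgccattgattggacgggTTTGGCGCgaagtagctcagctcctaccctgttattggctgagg
Mcm7 (chr5:138172005-138172084, minus strand): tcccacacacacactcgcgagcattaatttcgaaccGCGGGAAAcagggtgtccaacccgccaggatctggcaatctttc
The letters began 138 bases before the start of Cdc6, 149 before that of Mcm5, 165 before that of Mcm7, and 110 and 47 before that of Mcm6, and at base 11 after the start of Pole2. These distances are from the RefSeq start. The first 20 bases of a GENCODE M21 transcript lay in the windows of Cdc6, Pole2 and Mcm7, but those of 0 of 5 transcripts did for Mcm5 and of 0 of 4 for Mcm6. In Mcm6 both copies read TTTGGCGC on the gene's own strand, while in Cdc6, Pole2, Mcm5 and Mcm7 the match was on the opposite strand.

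The values were normalised counts, that is, estimated counts per gene which the authors had divided by 1 factor per library. Estimated depths lay between 18000000 (OA_T0 replicate 3) and 59900000 fragments (MDI replicate 1), and 3 fragments were worth 1.35 to 4.62 normalised counts, a floor that covers counting error only and that all 56 genes exceeded many times over. A ribosomal RNA gene, CT010467.1, had 846732 normalised counts in OA_T0 replicate 3 and 176753 in OA replicate 1, fewer than in each of the other libraries (1200000.0 or more). The 10 markers of fibroblasts and preadipocytes, such as Pdgfra and Col1a1, summed to 384482 normalised counts or more in every library, whereas 7 endothelial markers summed to at most 25.7, 7 leukocyte markers to at most 150.2 and 3 epithelial markers to at most 22.4. Markers of the lineage itself moved with treatment. The 9 adipocyte markers found summed to 10579 to 11401 normalised counts in OA_T0, 12329 to 13309.9 in OA and 6871 to 7537 in MDI. Of the 4 tested, Fabp4, a fatty acid carrier, fell in OA_T0 against OA (log2 fold change -1.61) and rose in OA against MDI (2.45), Lpl, lipoprotein lipase, rose in OA against MDI (0.79), and Pparg rose in OA_T0 against OA (0.30). Of the fibroblast and preadipocyte markers, Pdgfra fell in OA_T0 against OA (-0.65) and rose in OA against MDI (0.47), and in OA_T0 against OA Col3a1 fell (-0.40) and Dlk1 rose (0.28). The OA_T0 and OA libraries of Dlk1 overlapped, and without OA_T0 replicate 2 0 of these 10 markers rose in that comparison. In OA_T0 against MDI, Fabp4 (0.84), Lpl (0.67) and Pparg (0.33) rose and Col3a1 fell (-0.34). The part of these markers in the replication genes was not tested.

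One library stood apart on the replication genes. Their mean log2 value, after each gene was centred on its mean over the 9 libraries, was 0.13, -0.072 and 0.13 in OA_T0 replicates 1 to 3, against -0.12, -0.092 and -0.084 in OA and 0.028, 0.058 and 0.022 in MDI. OA_T0 replicate 2 thus lay beside the OA libraries and below MDI, while the other OA_T0 libraries lay above MDI. It was the lowest OA_T0 library for 53 of the 56 genes, and for 31.9% of all tested genes. Replicates 1 and 3 were the lowest for 24.2% and 43.9% of all tested genes, so replicate 2 stood apart on this list only by that measure. Over all tested genes, log2 values correlated at Pearson r = 0.992 between OA_T0 replicates 1 and 2, 0.989 between 1 and 3, and 0.986 between 2 and 3. Its label held on the targets of the treatment: Abca1, an LXR target that exports cholesterol, had 7137, 7783 and 7104 normalised counts in OA_T0, against 1186, 1119 and 999.5 in OA and 1182, 1029 and 973 in MDI. Results on the 56 genes, and counts for the other gene lists, are therefore given with and without OA_T0 replicate 2. The cell type markers are given with all libraries unless stated. Because that library was noticed on these same genes, leaving it out raises their OA_T0 values and narrows their spread by construction, so the values without it are a description and support no call.

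**Figure D1:**
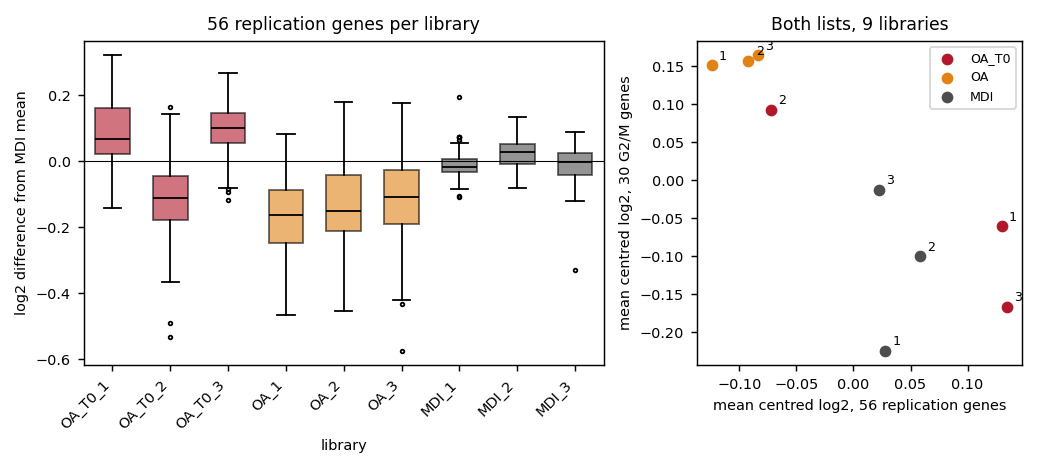
Left, box plots of the 56 replication genes in each library, as the log2 difference of each gene from its mean over the 3 MDI libraries (line, median; box, quartiles; whiskers, the farthest gene within 1.5 box lengths; dots, genes beyond). Right, the mean centred log2 value of the 56 replication genes (x axis) and of 30 genes of G2 and M phase (y axis) in each library, numbered by replicate; OA_T0 replicate 2, at -0.072 and 0.093, lies nearest the 3 OA libraries.

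In the comparison of OA_T0 with OA, which asks what the LXR agonist adds to oleic acid, 11 of the 56 genes rose and 0 fell. They were Orc2, Gmnn, Mcm8, Cdc45, Pola2, Pold1, Pold2, Pole2, Fen1, E2f1 and Chaf1b, with fold changes between 1.19 and 1.31. Among all tested genes 8.27% rose and 6.84% fell, so the share of replication genes that rose, 19.6%, was above the background with all libraries in the test. The median log2 fold change was 0.16 for the 56 genes and -0.0023 for all tested genes. At an unadjusted p below 0.05, limma placed 30 of the 56 higher, beside 15.6% of all tested genes, and 0 lower, beside 14.3%. The 3 OA_T0 libraries all lay above the 3 OA libraries for 17 of the 56 (30.4%, beside 17.1% of all tested genes) and all below for 0 (beside 15%). Without OA_T0 replicate 2, 31 rose (55.4%, beside 8.54% of all tested genes), including all of the 11. Leaving out OA_T0 replicate 1 left 1 that rose (1.79%, beside 3.87% of all tested genes), a share below the background. Leaving out OA_T0 replicate 3 left 6 (10.7%, beside 6.46%), as did leaving out OA replicate 2 (beside 5.05%), and leaving out OA replicate 1 left 4 (7.14%, beside 4.56%). Without both OA replicate 1 and OA_T0 replicate 3, the libraries with less ribosomal RNA, 1 of the 56 rose, beside 524 of the 15002 tested genes. With bulk RNA, a change in the share of cells in S phase and a change in the RNA per cell cannot be told apart, here and in what follows.

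Oleic acid alone was set against its vehicle in OA and MDI. Here 2 of the 56 genes fell, the origin factors Orc2 and Cdc6, and 0 rose; in all tested genes 3.36% fell and 3.43% rose, so the share called, 3.57%, was near the background. The values of many more were slightly lower in OA: the log2 fold change was negative for 49 of the 56, with a median of -0.15 (all tested genes, 0.014). At an unadjusted p below 0.05, limma placed 24 lower, beside 10.1% of all tested genes, and 0 higher, beside 11.1%. All 3 OA libraries lay below all 3 MDI libraries for 36 of the 56 (64.3%, beside 12.6% of all tested genes) and above them for 1, Rpa3 (beside 13.4%). The spread in this test was pooled over all 3 groups, OA_T0 included. Without OA_T0 replicate 2, 7 of the 56 fell, where 4.15% of all tested genes fell: Mcm4, Pcna, Pole, E2f1 and Chaf1b joined Orc2 and Cdc6. Likewise 7 fell with only the OA and MDI libraries in the fit, where 4% of all tested genes fell. The count was 6 without OA_T0 replicate 3, beside 4.26% of all tested genes. It was 1 of 56, or 1.79%, on leaving out either of the first 2 replicates of OA (beside 1.91% and 2.11%) or of MDI (beside 2% and 1.03%). The OA libraries enter both comparisons, on opposite sides, so one set of values is not a repeat of the other.

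In the comparison of OA_T0 with MDI, 0 of the 56 rose and 0 fell by limma, where 1.25% of all tested genes rose and 1.36% fell; at an unadjusted p below 0.05, 4 were higher and 1 lower, where 10.6% and 7.87% of all tested genes were, so both shares lay below the background. The median log2 fold change was 0.020, close to 0.019 in all tested genes, and it was negative after quantile normalisation (-0.0040), with equal totals (-0.015), without OA_T0 replicate 1 (-0.0076) and without OA_T0 replicate 3 (-0.017). The 95% intervals of the log2 fold change lay within 0.5 of 0 for 55 of the 56, E2f2 being the exception. The 3 OA_T0 libraries lay above the 3 MDI libraries for 5 genes (beside 13.3% of all tested genes) and below them for 1 (beside 10.2%). The 5 were Mcm8 (log2 fold change 0.13), Rfc5 (0.14), Pold1 (0.17), Pold2 (0.18) and Tk1 (0.20), and the 1 was Mcm4 (-0.17), none of which passed. Without OA_T0 replicate 2 the median was 0.093, and still 0 passed in either direction.

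**Figure D2:**
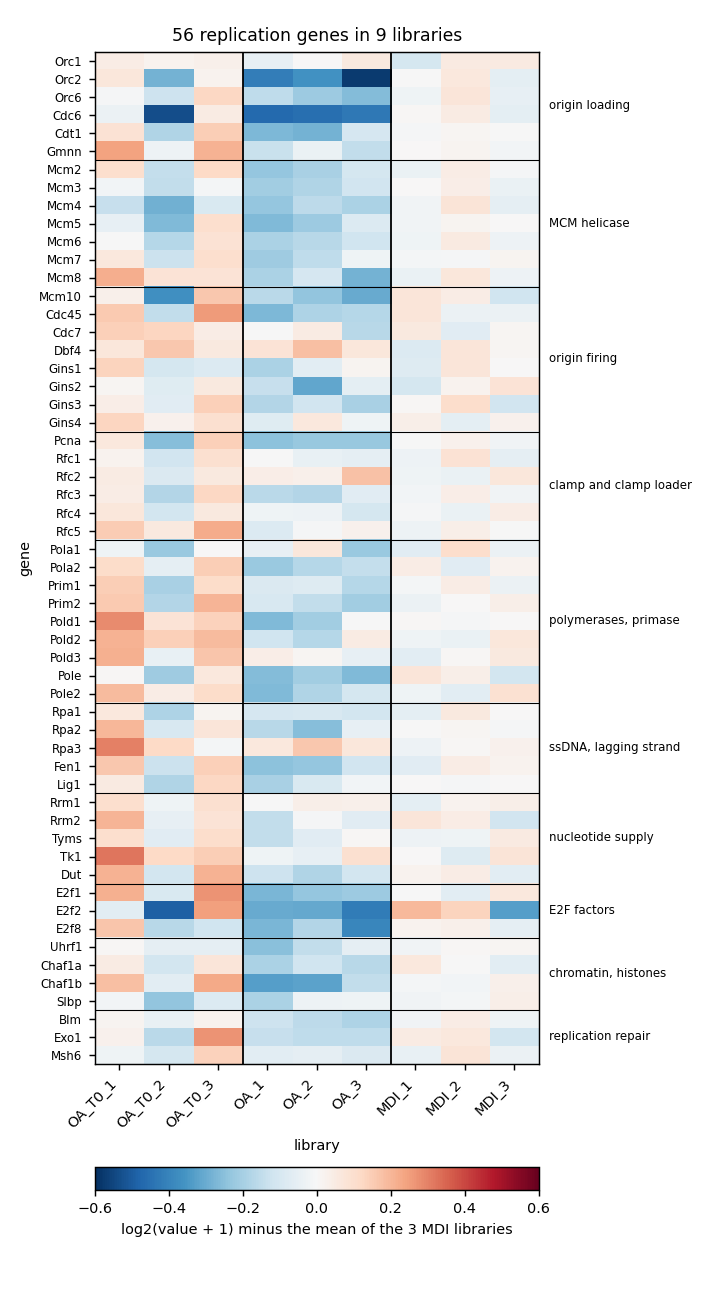
Each cell is the log2(value + 1) of a gene (rows, grouped by role) in a library (columns) minus that gene's mean over the 3 MDI libraries; red is higher and blue lower. The OA columns and OA_T0 replicate 2 are mostly blue, while OA_T0 replicates 1 and 3 are mostly pale or red.

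Among the genes that recognise and load origins, 2 of 6 rose in OA_T0 against OA (33.3%, beside 8.27% of all tested genes). In OA against MDI, 2 of 6 fell (33.3%, beside 3.36%). Orc2, a subunit of the origin recognition complex, had 2131, 1668 and 2059 normalised counts in OA_T0, against 1524, 1581 and 1366 in OA and 2026, 2122 and 1951 in MDI. The OA libraries were the lowest 3 for this gene, with no overlap with either other group. Orc2 rose 1.31-fold in OA_T0 against OA (log2 fold change 0.38, SE 0.086, adjusted p = 0.00747) and fell in OA against MDI (log2 fold change -0.45, SE 0.086, adjusted p = 0.00519). The call in OA_T0 against OA was lost without OA_T0 replicate 1 (adjusted p = 0.0576), while that against MDI held with each library left out. Cdc6, the ATPase that helps load MCM, had 819, 580.0 and 869 normalised counts in OA_T0, against 607, 613 and 622 in OA and 844, 869 and 804 in MDI. OA_T0 replicate 2 was below every OA library for Cdc6, and the other OA_T0 libraries lay near MDI. Cdc6 fell in OA against MDI (log2 fold change -0.45, SE 0.12, adjusted p = 0.0292), and that call was lost without any one of MDI replicate 1, MDI replicate 2 or the 3 OA libraries, at adjusted p up to 0.133. In OA_T0 against OA, Cdc6 did not pass (log2 fold change 0.28, SE 0.12, adjusted p = 0.118), and it passed without OA_T0 replicate 2 (adjusted p = 0.00104).

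Cdt1, which brings MCM to the origin, had 1288, 1069.7 and 1344 normalised counts in OA_T0, against 1007, 997 and 1129 in OA and 1205, 1223 and 1209 in MDI. OA_T0 replicates 1 and 3 were the highest 2 libraries and the OA libraries were all below MDI. Its log2 fold change in OA_T0 against OA was 0.24 (adjusted p = 0.0677), with adjusted p = 0.00649 without OA_T0 replicate 2 and a pass also without OA replicate 3. Gmnn, geminin, the inhibitor of CDT1, had 913, 756 and 894 normalised counts in OA_T0, against 705, 751 and 696 in OA and 772, 780.1 and 764 in MDI. OA_T0 replicate 2 was just above OA replicate 2, and the OA libraries were all below MDI. Gmnn rose in OA_T0 against OA (log2 fold change 0.25, SE 0.079, adjusted p = 0.0475), the weakest of the 11 calls: it was lost with any library but OA_T0 replicate 2 left out, at adjusted p up to 0.210. Orc1, the largest subunit of the complex, had 439, 433 and 436 normalised counts in OA_T0, against 413, 428 and 444 in OA and 396, 443 and 443 in MDI. The groups overlapped, and Orc1 had log2 fold changes of 0.027 (adjusted p = 0.862) in OA_T0 against OA and 0.0053 (adjusted p = 0.983) in OA against MDI. Orc6, a further subunit of the complex, had log2 fold changes of 0.21 (adjusted p = 0.0545) and -0.21 (adjusted p = 0.0837) in the same comparisons, and passed the first without OA_T0 replicate 2 (adjusted p = 0.0167) and the second without OA_T0 replicate 3 (adjusted p = 0.0496).

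In the MCM family, 1 of 7 genes rose in OA_T0 against OA (14.3%, beside 8.27% of all tested genes). None fell in OA against MDI (beside 3.36%), although the OA libraries were below all MDI libraries for all 7 (beside 12.6%). The gene that rose was Mcm8, which acts with MCM9 in homologous recombination and is not part of the main helicase. Mcm8 had 1071, 975 and 975 normalised counts in OA_T0, against 808, 857 and 757 in OA and 895, 965 and 901 in MDI, with the OA_T0 libraries above all others, and it rose 1.25-fold (log2 fold change 0.32, SE 0.072, adjusted p = 0.00806). That call was lost without OA_T0 replicate 1 (adjusted p = 0.0600). Of the 6 subunits of the helicase, Mcm2 had 4360.0, 3683 and 4413 normalised counts in OA_T0, against 3462, 3546 and 3775 in OA and 3958, 4194 and 4040.3 in MDI. Its OA_T0 and OA libraries overlapped, since OA_T0 replicate 2 lay between OA replicates 2 and 3. Mcm2 had log2 fold changes of 0.20 (adjusted p = 0.0589) in OA_T0 against OA and -0.18 (adjusted p = 0.145) in OA against MDI, and passed the first without OA_T0 replicate 2 (adjusted p = 0.00520) or without OA replicate 3. Mcm5 had 4798, 4126 and 5327 normalised counts in OA_T0, against 4131, 4263 and 4684 in OA and 4889, 5024 and 4969.9 in MDI. OA_T0 replicate 2 was its lowest library and OA_T0 replicate 3 its highest, and its log2 fold changes were 0.12 (adjusted p = 0.342) and -0.19 (adjusted p = 0.178), the first passing without OA_T0 replicate 2 (adjusted p = 0.0451). Across the 6 subunits the log2 fold change ran from -0.19 (Mcm4) to -0.13 (Mcm7) in OA against MDI, and from 0.018 (Mcm4) to 0.20 (Mcm2) in OA_T0 against OA. In OA_T0 against OA, Mcm6 and Mcm7 also passed without OA_T0 replicate 2 (adjusted p = 0.0350 and 0.0355, beside 0.200 and 0.168 with all libraries). Mcm4 passed in OA against MDI without OA_T0 replicate 2 (adjusted p = 0.0434, beside 0.0760 with all libraries).

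Of the 8 genes of origin firing, 1 rose in OA_T0 against OA (12.5%, beside 8.27% of all tested genes). Cdc45, which joins MCM and GINS in the active helicase, had 1311, 1061 and 1407 normalised counts in OA_T0, against 975, 1036 and 1047 in OA and 1238, 1147 and 1148 in MDI. OA_T0 replicate 2 was only just above the OA libraries. Cdc45 rose 1.23-fold (log2 fold change 0.30, SE 0.089, adjusted p = 0.0357), and the call did not survive the loss of MDI replicate 2, of either of the first 2 OA replicates, or of the first or last OA_T0 replicate, at adjusted p up to 0.150. Mcm10, an initiation factor that helps activate the helicase, had 1456, 1105 and 1595 normalised counts in OA_T0, against 1272, 1210.2 and 1154 in OA and 1499, 1469.8 and 1310.3 in MDI. It had a wide spread in OA_T0, from the lowest library of all to the highest, and log2 fold changes of 0.18 (adjusted p = 0.287) in OA_T0 against OA and -0.23 (adjusted p = 0.218) in OA against MDI. Mcm10 passed the first without OA_T0 replicate 2 (adjusted p = 0.0106). Dbf4, the activator of the CDC7 kinase, is singled out after its values were seen, since it did not share the pattern. It had 4046, 4318 and 4012 normalised counts in OA_T0, against 4080.3, 4371 and 4041 in OA and 3639, 4054 and 3884 in MDI. OA replicate 3 lay just under MDI replicate 2, the other OA libraries lay above MDI, OA_T0 replicate 2 was the highest of its group, and its log2 fold changes were -0.013 (adjusted p = 0.905) and 0.11 (adjusted p = 0.312). Cdc7 and the 4 GINS subunits had log2 fold changes between 0.062 (Gins1) and 0.20 (Gins3) in OA_T0 against OA, and between -0.17 (Gins2) and -0.010 (Gins4) in OA against MDI.

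Neither Pcna, the sliding clamp, nor the 5 subunits of its loader passed with all libraries. Pcna had 5557, 4441 and 5869 normalised counts in OA_T0, against 4472, 4536 and 4537 in OA and 5298, 5397 and 5236 in MDI. Its 3 OA libraries lay within a narrow band below MDI, and OA_T0 replicate 2 was just below them, while the other OA_T0 libraries were above MDI. Pcna had log2 fold changes of 0.22 (adjusted p = 0.0806) in OA_T0 against OA and -0.23 (adjusted p = 0.0980) in OA against MDI; without OA_T0 replicate 2 both passed (adjusted p = 0.00111 and 0.0114), and without OA_T0 replicate 3 the second did. The table also listed a processed copy, Pcna-ps2, at 4932, 3854 and 5207 normalised counts in OA_T0, against 3883, 4112 and 3844 in OA and 4502, 4577 and 4265 in MDI. Reads shared between the gene and this copy cannot be told apart in these values, so the level of Pcna is uncertain. The loader subunits Rfc1 to Rfc5 ranged from -0.075 (Rfc2) to 0.17 (Rfc5) in OA_T0 against OA and from -0.14 (Rfc3) to 0.082 (Rfc2) in OA against MDI, as log2 fold changes. Without OA_T0 replicate 2, Rfc3 (adjusted p = 0.0298) and Rfc5 (adjusted p = 0.0291) passed in OA_T0 against OA, beside 0.240 and 0.0644 with all libraries.

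The polymerases and primase, the largest role with 9 genes, held the most calls. Of these 9, 4 (44.4%, beside 8.27% of all tested genes) were higher in OA_T0 than in OA. All 4 calls were lost without OA_T0 replicate 1. Pold1, the catalytic subunit of polymerase delta, had 1722, 1500.0 and 1556 normalised counts in OA_T0, against 1178, 1224 and 1415 in OA and 1421, 1407 and 1418 in MDI. The OA_T0 libraries were above all OA and MDI libraries, and Pold1 rose 1.25-fold (log2 fold change 0.33, SE 0.075, adjusted p = 0.00894). Its call was lost without OA replicate 1 (adjusted p = 0.0598) or OA_T0 replicate 1 (adjusted p = 0.0680). Pold2, the second subunit of that polymerase, had 2568, 2459 and 2536 normalised counts in OA_T0, against 2048, 1975 and 2305 in OA and 2181, 2164 and 2331 in MDI. OA_T0 again stood above both other groups, replicate 2 lay close to the other OA_T0 libraries, and Pold2 rose 1.20-fold (log2 fold change 0.26, SE 0.064, adjusted p = 0.0138). The Pold2 call was lost on leaving out either of the first 2 OA replicates, or OA_T0 replicate 1, at adjusted p up to 0.0713.

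Pola2, the regulatory subunit of polymerase alpha, had 1937, 1731 and 1989 normalised counts in OA_T0, against 1537, 1595 and 1625 in OA and 1854, 1715 and 1819.6 in MDI. The OA libraries were the lowest 3, and OA_T0 replicate 2 lay within the range of MDI. Pola2 rose in OA_T0 against OA (log2 fold change 0.25, SE 0.065, adjusted p = 0.0188). Leaving out OA replicate 1, OA_T0 replicate 1 or OA_T0 replicate 3 ended this call, at adjusted p up to 0.0944. Pole2, the second subunit of polymerase epsilon and one of the genes with E2F letters, had 527, 476 and 498 normalised counts in OA_T0, against 384, 407 and 429 in OA and 454, 441 and 491 in MDI, with OA_T0 replicate 2 above every OA library. Pole2 rose (log2 fold change 0.30, SE 0.085, adjusted p = 0.0287), a call that ended on leaving out either of the first 2 OA replicates, or the first or last OA_T0 replicate, at adjusted p up to 0.134. Pole, its catalytic subunit, had 4882, 4181 and 5068 normalised counts in OA_T0, against 4050.1, 4196 and 4035 in OA and 5108, 4979 and 4491 in MDI. The OA libraries were all below MDI for Pole, whose log2 fold changes were 0.20 (adjusted p = 0.0784) in OA_T0 against OA and -0.25 (adjusted p = 0.0542) in OA against MDI. Pole passed both without OA_T0 replicate 2 (adjusted p = 0.00948 and 0.0188), and without MDI replicate 3 or OA_T0 replicate 3 it passed the second. Prim1 and Prim2, the primase subunits, did not pass in OA_T0 against OA with all libraries (adjusted p = 0.279 and 0.0981). Both did so only without OA_T0 replicate 2 (adjusted p = 0.0182 and 0.00274). Pola1, the catalytic subunit of polymerase alpha, and Pold3, an accessory subunit of polymerase delta, had log2 fold changes of -0.012 (adjusted p = 0.937) and 0.11 (adjusted p = 0.351) in that comparison.

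Of the 5 genes for single-strand binding and the lagging strand, Fen1, the nuclease that trims Okazaki fragments, rose in OA_T0 against OA. Fen1 had 1810.4, 1483 and 1791 normalised counts in OA_T0, against 1367, 1381 and 1495 in OA and 1544, 1673 and 1647 in MDI. OA_T0 replicate 2 overlapped with OA replicate 3, and Fen1 was the only one of the 11 called genes whose groups overlapped (log2 fold change 0.26, SE 0.077, adjusted p = 0.0364). The call ended on leaving out any of the same 5 libraries as for Cdc45, at adjusted p up to 0.176. Lig1, the ligase that joins those fragments, had log2 fold changes of 0.10 (adjusted p = 0.394) in OA_T0 against OA and -0.10 (adjusted p = 0.493) in OA against MDI. The subunits of replication protein A, which coats single-stranded DNA, differed among themselves. In OA_T0 against OA, Rpa2 had 0.21 (adjusted p = 0.0817), passing without OA_T0 replicate 2 (adjusted p = 0.0186) or OA replicate 3, while Rpa1 had 0.067 (adjusted p = 0.525) and Rpa3 0.041 (adjusted p = 0.773), all as log2 fold changes.

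None of the 5 genes of nucleotide supply passed in any comparison with all libraries. Rrm2, the small subunit of ribonucleotide reductase, had 4229.6, 3546 and 3892 normalised counts in OA_T0, against 3309.5, 3648 and 3497 in OA and 3863, 3785 and 3385 in MDI. Its groups overlapped, with log2 fold changes of 0.16 (adjusted p = 0.161) in OA_T0 against OA and -0.076 (adjusted p = 0.608) in OA against MDI. Tyms, thymidylate synthase, had 5358, 4766 and 5369 normalised counts in OA_T0, against 4504, 4760.2 and 5014 in OA and 4893, 4912 and 5192 in MDI. The groups overlapped here too, with log2 fold changes of 0.12 (adjusted p = 0.230) and -0.072 (adjusted p = 0.576). Tk1, thymidine kinase, had 3573, 3105 and 3172 normalised counts in OA_T0, against 2809.5, 2767 and 3053 in OA and 2865, 2707 and 3017 in MDI. The OA_T0 libraries of Tk1 were above all other libraries, but the difference from OA (log2 fold change 0.19, SE 0.067, adjusted p = 0.0716) did not pass. It did without OA_T0 replicate 2 (adjusted p = 0.0457) or OA replicate 3. Dut, the enzyme that removes dUTP, missed the threshold in OA_T0 against OA (log2 fold change 0.24, SE 0.078, adjusted p = 0.0507), and reached adjusted p = 0.00180 once OA_T0 replicate 2 was left out. Rrm1, the large subunit of ribonucleotide reductase, moved least of the 5, at 0.035 (adjusted p = 0.719) in the same comparison, and its values over the 9 libraries differed by at most 1.11-fold.

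Among the E2F factors, E2f1, an activator of S phase genes, rose in OA_T0 against OA. E2f1 had 1518, 1229 and 1576 normalised counts in OA_T0, against 1082, 1114 and 1124 in OA and 1307, 1253 and 1368 in MDI. All OA libraries were below all others, and OA_T0 replicate 2 was below all MDI libraries. E2f1 rose 1.29-fold (log2 fold change 0.37, SE 0.083, adjusted p = 0.00718), a call lost without OA_T0 replicate 1 (adjusted p = 0.0520). In OA against MDI its log2 fold change was -0.24 (adjusted p = 0.0980), with adjusted p = 0.0233 without OA_T0 replicate 2. E2f8, an atypical member that represses E2F targets, had 859, 682 and 704 normalised counts in OA_T0, against 631, 676 and 583 in OA and 775, 781 and 737 in MDI. The groups did not overlap in either comparison with OA, but E2f8 did not pass, at log2 fold changes of 0.24 (adjusted p = 0.0862) and -0.28 (adjusted p = 0.0809); it passed the first without OA_T0 replicate 2 (adjusted p = 0.0434). E2f2, another activator, was the lowest of the 56 genes, at 74.4 to 125 normalised counts, and varied most between libraries, 1.68-fold.

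Among the genes of chromatin and histone supply, Chaf1b, a subunit of the assembly factor CAF-1 that places histones on new DNA, had 1512, 1277 and 1561 normalised counts in OA_T0, against 1058, 1067 and 1201 in OA and 1320.0, 1315 and 1361 in MDI. The OA libraries were below all others for Chaf1b, and it rose 1.30-fold in OA_T0 against OA (log2 fold change 0.38, SE 0.079, adjusted p = 0.00441). Of the 11 calls in that comparison, this was the only one to hold with each of the 9 libraries left out in turn, at adjusted p between 0.000585 and 0.0347. It was lost without both OA replicate 1 and OA_T0 replicate 3 (adjusted p = 0.0804), where only the call of Mcm8 held (adjusted p = 0.0447). In OA against MDI its log2 fold change was -0.27 (adjusted p = 0.0556), and it passed without OA_T0 replicate 2 (adjusted p = 0.0205), OA_T0 replicate 3 or OA replicate 3. Chaf1a, the large subunit of CAF-1, passed in OA_T0 against OA without OA_T0 replicate 2 (adjusted p = 0.0245, beside 0.0928 with all libraries). Uhrf1, which keeps DNA methylation after replication, had 4197, 4024 and 4033 normalised counts in OA_T0, against 3514, 3781 and 4026 in OA and 4126, 4209 and 4213 in MDI. OA replicate 3 was the only OA library within the range of OA_T0, and Uhrf1 had log2 fold changes of 0.12 (adjusted p = 0.192) and -0.15 (adjusted p = 0.140) in OA_T0 against OA and in OA against MDI. Slbp, which binds the stem-loop of histone messages, had 4093, 3512 and 3901 normalised counts in OA_T0, against 3629, 4044 and 4063 in OA and 4079, 4094 and 4230.4 in MDI, with OA_T0 replicate 2 its lowest library and log2 fold changes of -0.030 (adjusted p = 0.803) and -0.081 (adjusted p = 0.538). Of the repair genes, Exo1, a nuclease of mismatch repair, had 1335, 1170.3 and 1578 normalised counts in OA_T0, against 1190.1, 1178 and 1178 in OA and 1355, 1368 and 1212 in MDI. It passed in OA_T0 against OA without OA_T0 replicate 2 (adjusted p = 0.0239, beside 0.165 with all libraries), while Blm, a RecQ helicase, and Msh6, a mismatch recognition factor, had log2 fold changes of 0.15 (adjusted p = 0.0903) and 0.070 (adjusted p = 0.501).

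**Figure D3:**
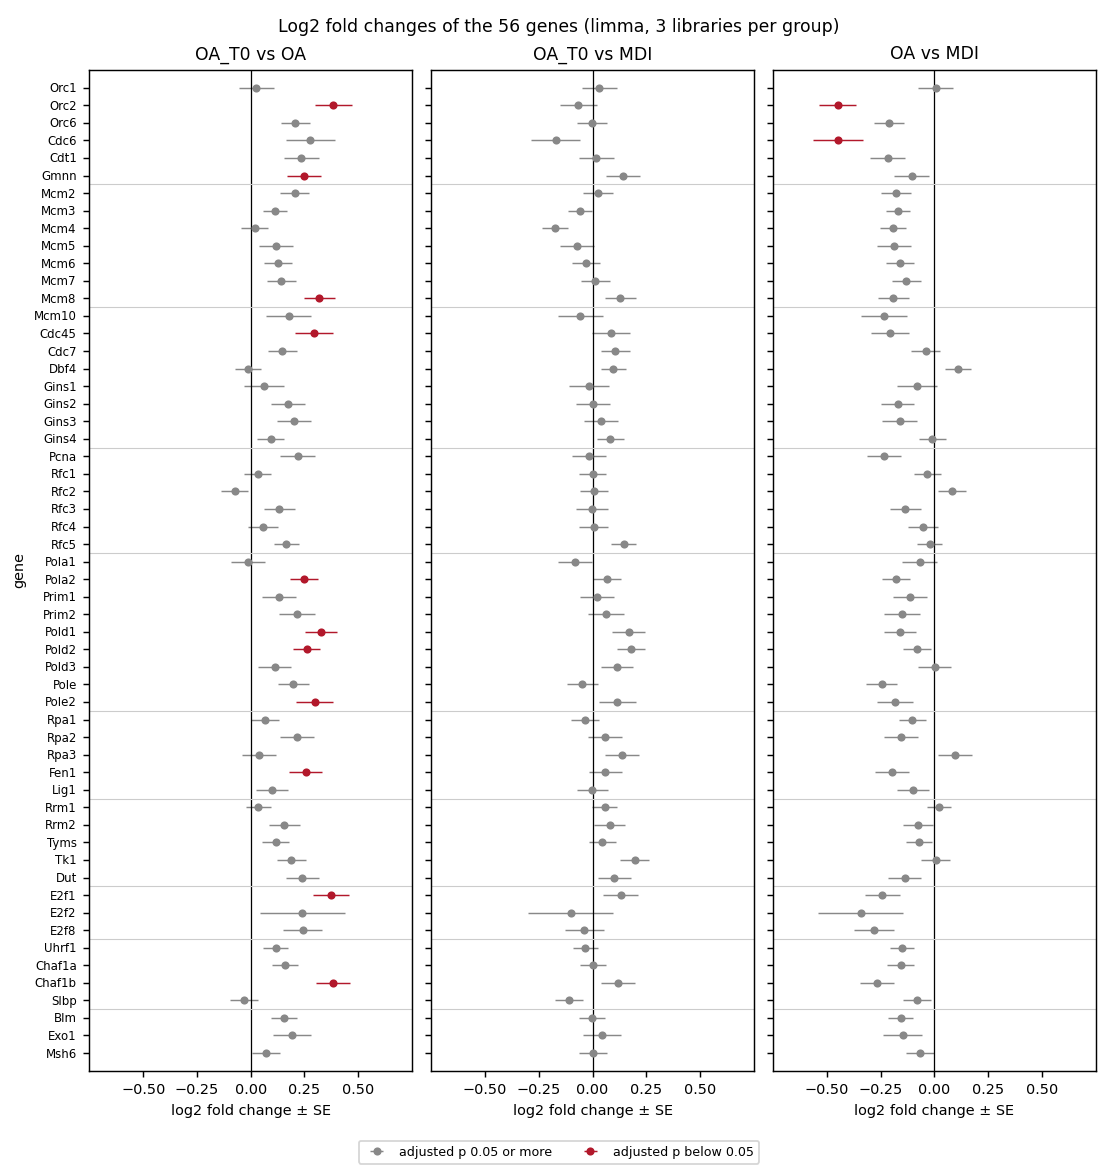
Log2 fold changes (points) with standard errors (bars) of the 56 genes, in the order of their roles, for OA_T0 against OA, OA_T0 against MDI and OA against MDI; red points have a limma adjusted p below 0.05. Red points number 11 in the left panel, 0 in the middle and 2 in the right.

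**Figure D4:**
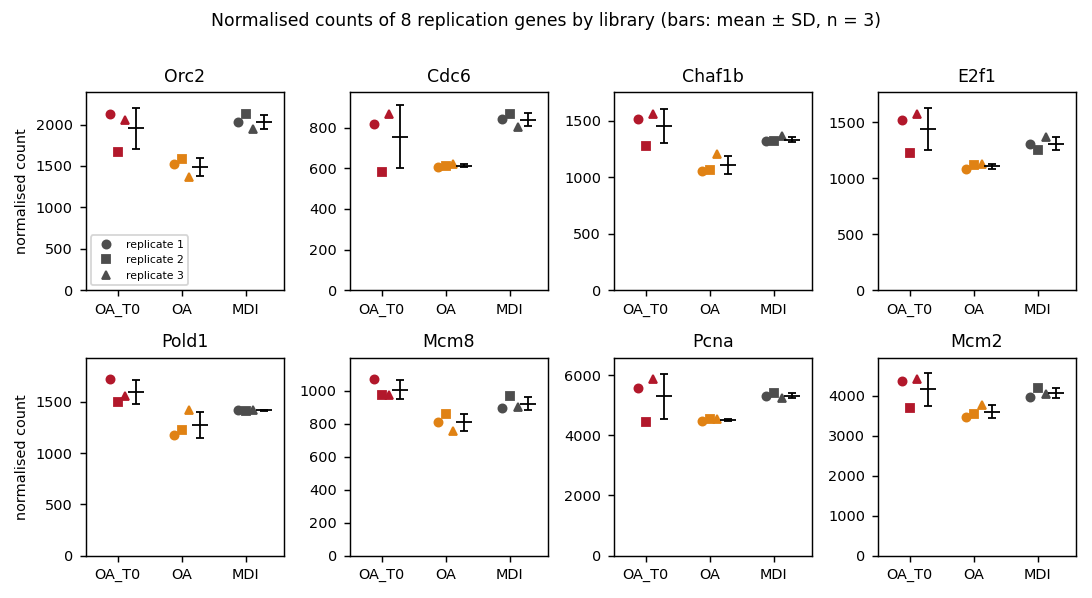
Normalised counts of 8 replication genes in each library (symbols, by replicate), with the mean ± SD of each group (n = 3) beside them, on axes that start at 0. OA_T0 replicate 2 (square) is the lowest OA_T0 library for each of the 8 genes, although for Mcm8 it is level with replicate 3.

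The replication genes varied little within OA and MDI and more within OA_T0. The median coefficient of variation over the 56 genes was 8.81% in OA_T0, against 4.23% in OA and 4.06% in MDI, and over all tested genes it was 7.58% in OA_T0, 7.67% in OA and 7.18% in MDI. Each gene was also set against the mean of the other 55 over the 9 libraries, as a description over libraries that differ in treatment and depth. Mcm2 (Pearson r = 0.978), Pcna (0.971), Fen1 (0.964), Cdc45 (0.953) and Cdt1 (0.949) followed that mean most closely. Dbf4 (-0.432), Rfc2 (-0.0696) and Rpa3 (-0.00389) did not follow it. By the same measure, the 10 genes outside every list that most resembled the 56 included Cln8 (r = 0.985), an endoplasmic reticulum protein, Lyar (0.982), a nucleolar protein, Wdr74 (0.980), a factor of ribosome assembly, Lonp1 (0.978), a mitochondrial protease, and Tcf19 (0.966). Per kilobase of annotated exon (GENCODE M21), mean levels over the 9 libraries ran from 19.7 for E2f2 to 2099 normalised counts for Pcna, with Mcm7 at 1434, Rrm1 at 1105, Cdc6 at 141 and Orc1 at 124.

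A further 59 genes of replication were all tested. In OA_T0 against OA, 7 rose (11.9%, beside 8.27% of all tested genes) and 1 fell (1.69%, beside 6.84%). In OA against MDI, 2 rose and 2 fell (3.39% each, beside 3.43% and 3.36%), which was near the background. In OA_T0 against MDI, 1 rose (1.69%, beside 1.25%) and 0 fell (beside 1.36%). Once OA_T0 replicate 2 was left out, 17 rose and 2 fell in OA_T0 against OA (beside 8.54% and 8.26% of all tested genes). Then 2 rose and 6 fell in OA against MDI (beside 4.04% and 4.15%). In OA_T0 against MDI, 1 rose and 0 fell, beside 144 and 183 of the 15002 tested genes. With all libraries their median log2 fold changes were 0.086, -0.094 and -0.0091 in that order. In OA_T0 against OA the smallest adjusted p-values belonged to Recql4, a helicase of origin firing (log2 fold change 0.47), Dctpp1, which clears altered nucleotides (0.37), Top1, topoisomerase I, the one that fell (-0.23), and Chtf18, of an alternative clamp loader (0.28). In OA against MDI those that fell were E2f7, an atypical E2F (-0.39), and Ung, a uracil glycosylase (-0.59), and those that rose were Rnaseh2c, of ribonuclease H2 (0.42), and Pold4, a small subunit of polymerase delta (0.41). Rnaseh2c was also the one that rose in OA_T0 against MDI (0.49).

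The 30 genes of G2 and M phase had values in the other direction. In OA_T0 against OA, 0 rose (beside 8.27% of all tested genes) and 10 fell (33.3%, beside 6.84%). The median log2 fold change was -0.21, beside 0.16 for the 56 replication genes. In OA against MDI, 13 of the 30 rose (43.3%, beside 3.43%) and 0 fell (beside 3.36%). The median was 0.25, beside -0.15 for the replication genes. With OA_T0 replicate 2 left out, 20 fell in OA_T0 against OA (beside 8.26% of all tested genes) and 17 rose in OA against MDI (beside 4.04%). The difference between these lists was not tested. Their mean centred log2 value was -0.061, 0.093 and -0.17 in OA_T0, against 0.15, 0.16 and 0.16 in OA and -0.22, -0.10 and -0.013 in MDI. OA_T0 replicate 2, the lowest OA_T0 library on the replication genes, was thus the highest OA_T0 library on the mitotic ones. The signs of RNA quality or handling were 15 transcripts. In OA_T0 against OA, 5 of them rose (33.3%, beside 8.27% of all tested genes) and 1 fell (6.67%, beside 6.84%). In OA against MDI, 0 rose (beside 3.43%) and 3 fell (20%, beside 3.36%), and in OA_T0 against MDI 2 rose (13.3%, beside 1.25%) and 0 fell (beside 1.36%). Without OA_T0 replicate 2 these counts were the same, except that 1 fell in OA_T0 against MDI. Of all tested genes, 8.54% then rose and 8.26% fell in OA_T0 against OA, and 4.04% rose and 4.15% fell in OA against MDI. In OA_T0 against MDI, 144 and 183 of the 15002 did. The 3 that fell in OA were Fos, Egr1 and Atf3, immediate early genes that cells induce within minutes of a stimulus, and these rose in OA_T0 against OA along with mt-Rnr1 and mt-Rnr2, while Neat1, a nuclear non-coding RNA, fell. Fos had 238, 224 and 193 normalised counts in OA_T0, against 144, 148 and 159.6 in OA and 198, 223 and 199 in MDI. Egr1 had 5397, 4978 and 5365 normalised counts in OA_T0, against 3921, 4147 and 3894 in OA and 5029, 5635 and 5188 in MDI, and unlike the replication genes it was not near the OA level in OA_T0 replicate 2. Of the mitochondrial ribosomal RNAs, mt-Rnr1 had 15120.4, 12515 and 12172 normalised counts in OA_T0, against 8191, 9731 and 8250.0 in OA and 6688, 7654 and 7473 in MDI, highest in OA_T0. The part of the mitotic, early and mitochondrial transcripts in the replication genes was not tested.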

How the data were processed

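Poly(A) RNA of 3T3-L1 cells was measured in 9 libraries, 3 for each of OA_T0, OA and MDI. The deposited signal per gene was a normalised count, an estimated count that was not whole and that the authors had divided by 1 factor per library; CASAVA 1.8.2, TopHat, HTSeq, DESeq2 and mm9 are named in the submitters' processing notes, with no role or order. Low values piled up on multiples of 1 step per library, taken as 1 fragment, which gave the estimated depths; of values worth 5 to 50 steps, only 63.1% to 68.9% lay within 0.05 of a whole step, so no count test was run. No column was left unmapped.

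The 15002 genes with a mean of at least 10 were tested on log2(value + 1) by limma (3.58.1; R 4.3.3). One spread, with a trend on the mean level, was shared by the 3 groups. Fold changes are on this scale, which understates low genes. Two-sided p-values were adjusted by Benjamini-Hochberg within each comparison and passed below 0.05; the procedure was tested on simulated data. The members, their roles and the lists were chosen with earlier results of these data known. Described in full were all members that passed and 17 fixed ones, and for other replication genes up to 4 per comparison with the smallest adjusted p. Of 59 such symbols all matched. Positions and promoter sequences are RefSeq's, of GRCm38.p6, and exon lengths GENCODE M21's. The labels do not say whether the replicate numbers pair the libraries, and the main fit used no pairing. Alternatives were 2 pseudocounts, 2 filters, 2 scalings, a fit of the compared groups, a replicate block and leaving out libraries.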

Additional observations from a re-analysis of the deposited data

How the results depend on the processing

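The median log2 fold change of the 56 genes kept its sign under all 18 alternatives in OA_T0 against OA (0.11 to 0.22) and in OA against MDI (-0.17 to -0.13), and not in OA_T0 against MDI (-0.017 to 0.093). The counts of calls moved more. Members higher in OA_T0 than in OA numbered 11, but 7 with equal totals, beside 1045 of the 15002 tested genes. They numbered 1 without both OA replicate 1 and OA_T0 replicate 3, beside 524 of the 15002. With 1 library left out they numbered between 1 (without OA_T0 replicate 1, beside 580 of the 15002) and 31 (without OA_T0 replicate 2, beside 1281). Members lower in OA than in MDI numbered 2, but 1 with no filter, beside 234 of 27045 tested genes. They numbered 4 with a filter at a mean of 50 (beside 544 of 12377) and 7 with only the compared groups (beside 600 of 15002). With 1 library left out they numbered between 1 and 7. Over all tested genes, those higher and lower in OA_T0 against OA numbered 524 to 1443 and 402 to 1239 (1240 and 1026 as reported), in OA against MDI 211 to 658 and 155 to 639 (514 and 504), and in OA_T0 against MDI 66 to 284 and 38 to 262 (188 and 204). Of 1404 single values of 26 described genes, 62 lost a call, 31 gained one, 0 called values changed sign and 33 uncalled ones did. Correlations of deviations from the group mean ran from -0.256 to 0.259 between samples of the same number and from -0.230 to 0.250 between the others. Of the 9 libraries, 2 correlated best with a library of their own number. With 3 libraries per group these values cannot exclude pairing. A replicate block gave 10 higher in OA_T0 against OA and 3 lower in OA against MDI, beside 1095 and 417 of the 15002 tested genes. The shallowest library, OA_T0 replicate 3, had about 18000000 fragments, a depth that limits E2f2, the lowest of the 56, most.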

Other observations

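The regulators that act before S phase gave a mixed picture. Of 15 G1 cyclins, cyclin-dependent kinases, inhibitors, pocket proteins and repressive E2F factors listed, 14 were tested. In OA_T0 against OA, 4 rose (28.6%, beside 8.27% of all tested genes) and 1 fell (7.14%, beside 6.84%), a share near the background. In OA against MDI, 1 rose and 1 fell (7.14% each, beside 3.43% and 3.36%). Ccnd2, cyclin D2, had 19218, 17947 and 18371 normalised counts in OA_T0, against 13403, 14061 and 13268 in OA and 16030.3, 17558 and 16284 in MDI, so that OA_T0 was above and OA below MDI (log2 fold change 0.45, adjusted p = 0.000137 in OA_T0 against OA; -0.29, adjusted p = 0.00819 in OA against MDI, by limma). Ccnd2 in OA_T0 replicate 2 was close to the other OA_T0 libraries and above every OA library. Ccnd1, cyclin D1, rose in OA_T0 against OA (0.37), as did Cdkn2b, an inhibitor of its kinase (0.41), and E2f4, a repressive E2F (0.26), while Cdkn1b, the inhibitor p27, fell (-0.26). Cdkn2c, another inhibitor of those kinases, rose in OA against MDI (0.29). With OA_T0 replicate 2 left out, again 4 rose and 1 fell in OA_T0 against OA (beside 8.54% and 8.26% of all tested genes). In OA against MDI, 1 rose and 2 fell (beside 4.04% and 4.15%).

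The replication-dependent histone genes, whose messages lack a poly(A) tail and which poly(A) selection therefore captures poorly, numbered 63, of which 31 were tested. By limma 0 rose and 0 fell in each comparison; at an unadjusted p below 0.05, 4 (12.9%, beside 29.9% of all tested genes) differed in OA_T0 against OA, 3 (9.68%, beside 21.2%) in OA against MDI and 2 (6.45%, beside 18.5%) in OA_T0 against MDI. Without OA_T0 replicate 2, 1 rose in OA_T0 against OA (beside 8.54% of all tested genes) and 0 passed in the other comparisons. At an unadjusted p below 0.05, 9, 4 and 4 of the 31 then differed in OA_T0 against OA, OA against MDI and OA_T0 against MDI. Beside them were 4634, 3311 and 2792 of the 15002 tested genes. Their summed values were 7103, 5525 and 10045 normalised counts in OA_T0, against 6543, 6368 and 5360.4 in OA and 7811, 7396 and 6743 in MDI. OA_T0 replicate 2 was again the lowest OA_T0 library, and OA_T0 replicate 3, which also held less ribosomal RNA, the highest of all.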
